A study of Drosophila montana with 23 samples.

Results

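CG6785 is a gene that the array carries under its D. melanogaster number alone, and no function is given to it here. It was followed in adult females of Drosophila montana, a northern fly of the D. virilis group. It was selected on its measured expression, since the study that made these arrays listed it among the genes that were higher in diapausing females. Its probes were found by name, and 2 of the 1850 gene probes carried it, which makes it 1 of the 218 genes measured. The probe with the brighter signal, taken over all arrays but replicate c of 7ND, stands for the gene, and levels are its log2 intensity after quantile normalization. A difference of 1 on this scale is a fold change of 2.

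Reproductive diapause is an arrest that some insects enter before an unfavourable season, in which the ovaries do not mature and the female survives on stored reserves at a lowered metabolic rate. In D. montana it is set off by the shortening days of late summer, shortly after the adult emerges, and it ends after the winter, when the ovaries begin to grow. Genes that change with it can therefore follow the arrest itself, the season, the age of the fly or the state of the ovary.

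Gene expression was measured in 8 groups of whole females of a single isofemale line, 175OJ8, on 23 one-colour arrays, each with RNA of a pair of pooled females. The females lived in a climate chamber that followed the day length and temperature of their home site. 7ND and 50ND were non-diapausing females of 7 and 50 days in summer conditions, the younger at an early stage of yolk formation and the older with fully developed ovaries, and 150ND were non-diapausing females of 150 days that spent the winter with mature ovaries. 7D and 50D were diapausing females of 7 and 50 days in autumn, 150D were diapausing females of 150 days in winter, and 220D were 220 days old, sampled in spring with ovaries that had not yet taken up yolk. 250D females, 250 days old, came through the winter in diapause and carried mature ovaries by the time of sampling. Winter was cold and dark for 150D and 150ND alike, after the 150ND females had first been kept in light that lets the ovaries mature. Each group had 3 arrays, replicates a, b and c, and 7ND had only a and c. Age goes with season in these groups, and at 7 and 50 days diapause also goes with season. The line was a single one, so the replicates are pools of females from 1 genetic background.

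Some libraries stood apart. On 7ND replicate c the median gene spot read 530 intensity units, against 19.4 to 49.7 on the other 22 arrays, and 98.5% of its gene spots were well above background. Its scan also correlated with its own column of the authors' table at 0.683 and was not the scan closest to it. The differences of CG6785 that use 7ND are therefore given with and without it. Replicate c of 150ND lay closer to 150D than to its own group over the other 217 genes, with a mean absolute distance of 0.46 log2 to the 150D mean and of 0.74 to the mean of 150ND replicates a and b. Replicates a and b of 150ND lay closer to the other 150ND arrays.

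CG6785 could be read on every array. All 8 spots of its bright probe were well above background on each of the 23 arrays, none was saturated, and none carried an outlier flag. Before normalization its intensity ran from 16.9 on 7D replicate a to 4275 on 150D replicate c. The spots of an array differed from each other by a coefficient of variation of 2.20% to 16.8%.

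The level was lowest in young females, rose with age in both kinds of female, was highest in overwintering diapausing females and was low again after diapause. In 7ND it was 4.77 and 4.05 log2 on replicates a and c. In 7D it was 4.62, 5.36 and 5.36 on replicates a, b and c. The young diapausing and non-diapausing females thus overlapped, since 7ND replicate a lay above 7D replicate a.

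At 50 days the females had separated. The level was 6.58, 6.48 and 7.21 in 50ND and 8.52, 8.29 and 7.95 in 50D. Every 50D array was above every 50ND array, and both groups were above all the young females.

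In winter the levels were higher again and more scattered. The level was 8.99, 7.94 and 9.64 in 150ND and 10.42, 10.06 and 11.99 in 150D. All 150D arrays were above all 150ND arrays, 150D replicate c was the highest array of the study, and the highest 150ND array was replicate c, the one that resembled 150D in other genes. The SD was 0.86 in 150ND and 1.02 in 150D, against 0.24 to 0.50 in the other 6 groups.

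In spring the 2 groups differed from each other. The level was 9.67, 9.79 and 9.11 in 220D, whose ovaries were still small. It was 5.64, 5.73 and 6.09 in 250D, whose ovaries were mature. The 250D arrays lay below all 50ND arrays and above all 7D arrays.

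**Figure D1:**
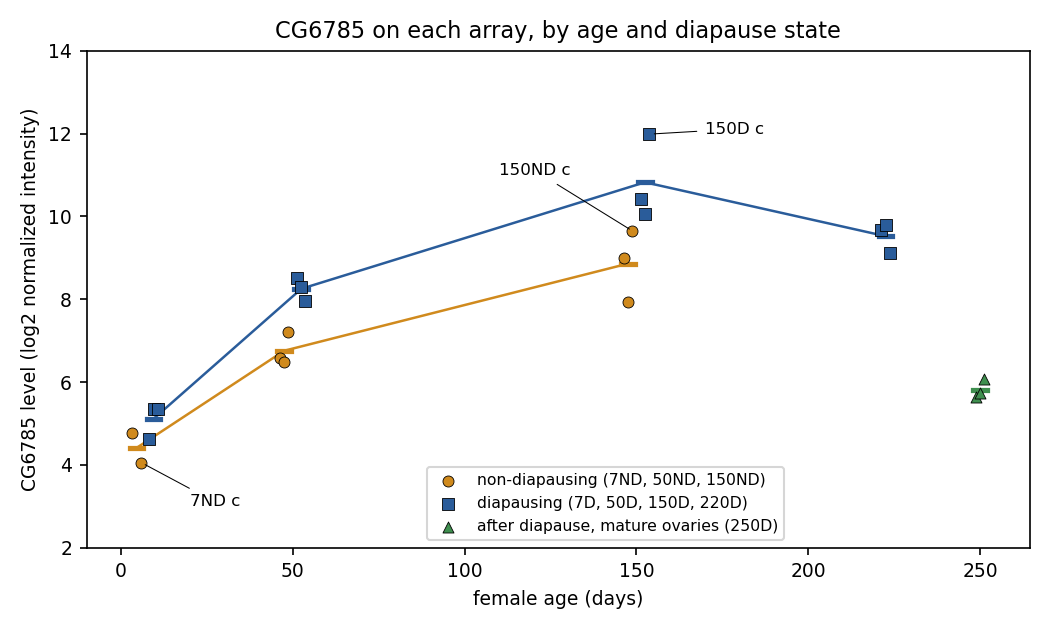
CG6785 level (log2 normalized intensity, vertical axis) on each of the 23 arrays against female age in days, with points shifted slightly sideways so that groups do not hide each other. Thick bars are group means, lines join the means of one kind of female, and the 250D females fall back to 5.82 from 9.52 in 220D.

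Ordered by mean, the groups were 7ND (4.41), 7D (5.12), 250D (5.82), 50ND (6.76), 50D (8.25), 150ND (8.86), 220D (9.52) and 150D (10.82). Of the 7 pairs of neighbours in this order, 7D and 7ND, 150ND and 50D, and 220D and 150ND overlapped in their arrays. Their means differed by 0.71, 0.61 and 0.67 log2, close to the residual SD of 0.58 between arrays of a group. The other 4 neighbouring pairs did not overlap, and the smallest of these steps was 0.70 log2 from 7D to 250D. As a description, the means of CG6785 spanned 6.41 log2, or 85.3-fold, the fourth widest span of the 218 genes, whose median span was 2.18 log2. Without 7ND replicate c the span was 6.06 log2 and ranked 5 of 218.

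CG6785 was chosen because it had been reported as higher in diapause, so the contrasts between 50D and 7D, 150D and 50D, and each of these with the non-diapausing females of the same age are described without a test. The difference was 3.14 log2 (SE 0.45) for 50D over 7D, an 8.81-fold change. Its size depended on the processing, with 1.79 after normexp background correction, 1.63 for the mean of both probes and 4.19 with no normalization between arrays. It was 2.57 (SE 0.45) for 150D over 50D, which is 5.94-fold. In the plain comparison of diapausing with non-diapausing females it was 1.50 (SE 0.45), or 2.82-fold, at 50 days and 1.97 (SE 0.45), or 3.91-fold, at 150 days. The mean of both probes, the dim one included, gave 0.79 and 1.39 for these differences. The diapause difference at 150 days exceeded that at 50 days by 0.47 log2 (SE 0.64), less than its own standard error, and without 150D replicate c this excess was -0.11. Leaving out 150D replicate c lowered the difference to 1.99 for 150D over 50D and to 1.38 for 150D over 150ND. Within the 3 slides, each of which held 1 array of either group, the diapause difference was 1.94, 1.81 and 0.74 at 50 days and 2.35, 1.43 and 2.12 at 150 days.

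The other 7 comparisons were not used to choose the gene and were tested with limma over all 218 genes. They share arrays with the contrasts above and with each other, and a gene counts as called where its adjusted p is under 0.05 and its change 2-fold or more. The pools of a group came from separate females, and the p-values measure the spread between such pools.

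**Figure D2:**
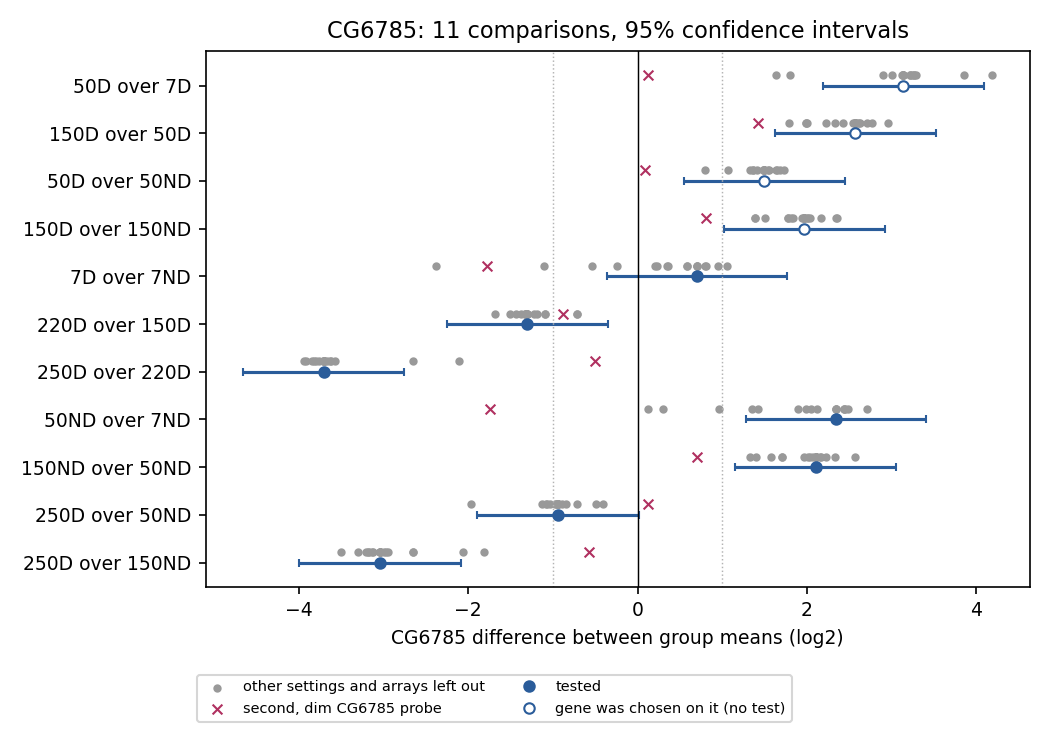
Difference in CG6785 between group means (log2, horizontal axis) for the 11 comparisons, with 95% confidence intervals. Filled points were tested, open points are contrasts on which the gene was chosen, grey dots are other settings and arrays left out, and crosses are the second, dim probe. The intervals of 250D over 220D and 250D over 150ND lie wholly below -1, the line of a 2-fold change.

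The fall after diapause was the largest of these 7 differences of CG6785. From 220D to 250D, as the ovaries matured, the level fell by 3.71 log2 (SE 0.45, adjusted p = 6.77e-06 by limma), to 13.0-fold less, and the 3 arrays of 250D were all below the 3 of 220D. In this comparison 22% of the 218 genes were called, and the fall of CG6785 was the third largest change of either direction. The number called depended on the processing, with 48 here, 36 for the mean of all probes and 68 with the authors' table. Within the 3 slides the difference was -4.06, -3.03 and -4.03. Before normalization the bright probe read 618, 723 and 636 intensity units in 220D and 39.7, 41.3 and 77.3 in 250D, so the groups did not overlap on the scale of the scanner either. The mean of both probes gave -2.11 for this step.

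Some markers of other tissues of the fly differed at the same step. Of the 7 genes listed for their ovarian expression in D. melanogaster, all 7 were detected on every array. Hsp26, a small heat shock protein, and Histone_H3.3A, a replacement histone, were called higher in 250D than in 220D. The other 5 were not called, and over all genes 8.72% were called higher. Hsp26 differed by 6.75 log2, Histone_H3.3A by 1.15 and lark by 1.13. Fmr1 differed by 0.78, stc by 0.42, Hsp83 by 0.03 and mle by -0.39. The mean level of the 7 ran from 9.41 to 10.02 log2 on the 220D arrays and from 10.87 to 11.26 on the 250D arrays. Hsp26 made up most of the difference in this mean. The gut protease gene Jon25Bi read 12.36 to 14.54 in 220D and 16.46 to 16.54 in 250D. The mean levels of the listed muscle, photoreceptor and neuronal genes each overlapped between the arrays of 220D and 250D, but single genes differed. By group mean Mhc stood at 16.02 log2 in 220D and 14.68 in 250D, and sls at 7.60 and 7.89. Of the neuronal genes, syt stood at 6.69 and 5.15 and cac at 4.64 and 5.97. Of the photoreceptor genes outside the list, trpl stood at 9.19 and 6.07, inaC at 10.52 and 8.20 and Gbeta76C at 10.27 and 10.13. The part of these differences in the fall of CG6785 was not tested. In RNA of whole flies, fewer cells that express a gene and less of its RNA per cell cannot be told apart.

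CG6785 was also higher in winter in females that did not diapause. These were older than those of summer and differed in early rearing, so age, season and early rearing cannot be told apart. From 50ND to 150ND the level rose by 2.10 log2 (SE 0.45, adjusted p = 0.00387 by limma), or 4.29-fold, and all 150ND arrays were above all 50ND arrays. The background was 11% of genes called, and the change ranked as the ninth largest of 218. Within slides it was 3.06, 2.51 and 0.73. Both groups had developed ovaries, and the mean of the 7 ovarian genes ran from 11.34 to 11.57 log2 in 50ND and from 10.40 to 11.68 in 150ND, the lowest value being that of 1 array. That array was replicate c, with Hsp26 at 15.78 against 17.36 and 17.35 on replicates a and b, and Histone_H3.3A at 12.17 against 13.84 and 13.72. The gut protease gene Jon25Bi also differed, at 14.86 to 16.22 log2 in 50ND and 13.32 to 14.30 in 150ND. The mean of the photoreceptor genes ninaE, trp and Arr2 ran from 10.23 to 10.82 in 50ND and from 8.79 to 10.36 in 150ND, with overlap. By group mean Arr2 stood at 10.83 in 50ND and 8.45 in 150ND, ninaE at 14.46 and 14.48, and trp at 6.27 and 6.12. Photoreceptor genes outside this list went both ways. In 50ND and 150ND trpl stood at 6.20 and 9.13, Rh5 at 8.56 and 10.24 and inaC at 7.86 and 9.32. Gbeta76C stood at 9.72 and 8.45 and Rh6 at 8.71 and 8.54. The part of these markers in the rise was not tested. Without 150ND replicate c the rise of CG6785 was 1.71 log2 (adjusted p = 0.0311). The call was lost when arrays were scaled on spike-in probes, where the difference was 1.33 (adjusted p = 0.121) and the median gene stood at -0.84 against 0.03 after quantile normalization, and with no normalization between arrays, where it was 2.07 (adjusted p = 0.0678). Over the 13 alternatives the adjusted p ran from 0.00147 to 0.662.

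Among females with mature ovaries, those sampled in spring after diapause had far less CG6785 than those sampled in winter. The level was 3.04 log2 lower in 250D than in 150ND (SE 0.45, adjusted p = 6.71e-05 by limma), a difference of 8.23-fold between groups that did not overlap. Here 10.6% of genes were called. Within slides the difference was -3.91, -2.91 and -2.30, and it was -2.65 without 150ND replicate c. The 7 ovarian genes overlapped in their mean level between these groups, at 10.40 to 11.68 log2 in 150ND and 10.87 to 11.26 in 250D. The value of 10.40 was that of 150ND replicate c, and the overlap was not examined without it. None of the 7 was called by limma, with 0 of the 7 at an unadjusted p under 0.05. Hsp26 stood at the same 17.361 log2 on 150ND replicate a and 250D replicate b, its highest value on any array. Jon25Bi read 13.32 to 14.30 in 150ND and 16.46 to 16.54 in 250D, and its part in the difference was not tested.

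250D lay nearer to the never-diapausing summer females. The difference of 250D over 50ND was -0.94 log2 (SE 0.45, adjusted p = 0.705 by limma), with a 95% confidence interval of -1.89 to 0.01, and the arrays of the groups did not overlap. The comparison called 0 of the 218 genes, a background of 0%, and 14 genes had an unadjusted p under 0.05. Within slides the difference was -0.85, -0.40 and -1.57.

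The step from winter to spring within diapause was downward but did not pass the test in the main fit. The difference of 220D over 150D was -1.30 log2 (SE 0.45, adjusted p = 0.104 by limma), a 2.46-fold lower level in arrays that did not overlap, where 5.05% of genes were called. Within slides it was -2.20, -1.31 and -0.39. It rested in part on 150D replicate c, without which it was -0.72 (adjusted p = 0.399). With the authors' own normalized table it was -1.32 and passed the threshold (adjusted p = 0.0382 by limma), in a range over the 13 alternatives from that value to 0.633. It also passed with normexp correction (-1.23, adjusted p = 0.0494 by limma). Without 7ND replicate c in the normalization it was -1.33, as given in the closing section.

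The young females gave the least certain values. From 7ND to 50ND the level rose by 2.35 log2 (SE 0.51, adjusted p = 0.0215 by limma), or 5.09-fold, without overlap, in a comparison in which 35.3% of genes were called. Without 7ND replicate c limma called 1 of the 218 genes, the rise of CG6785 was 1.99 log2 from the single array left, and its adjusted p was 0.405, on the assumption that the lone array varies like the other groups. Without 50ND replicate a the rise was 2.44 and the adjusted p 0.0537, and over the 13 alternatives that keep this array the adjusted p ran from 0.0175 to 0.89. Within the 2 slides that held 7ND arrays the rise was 1.81 and 2.43. Between 7D and 7ND the difference was 0.71 log2 (SE 0.51, adjusted p = 0.23 by limma), with an interval from -0.36 to 1.77, where 39.4% of genes were called. Within slides it was -0.14 and 1.31, and without 7ND replicate c it was 0.35. On the scales that do not force arrays to one distribution this difference was negative. It was -0.24 with 75th-percentile scaling and -1.11 with spike-in scaling. With no normalization between arrays it was -2.38 and passed the threshold (adjusted p = 0.00903 by limma). On these scales, in the same order, 7ND replicate c stood at -1.83, -3.29 and 8.38, and replicate a at -3.81, -6.03 and 4.93. The 7D arrays ran from -3.52 to -2.78, from -6.51 to -4.99 and from 4.08 to 4.44. They lay above replicate a with 75th-percentile scaling, on both sides of it with spike-in scaling and below it with no normalization. The young females thus gave no direction.

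**Figure D3:**
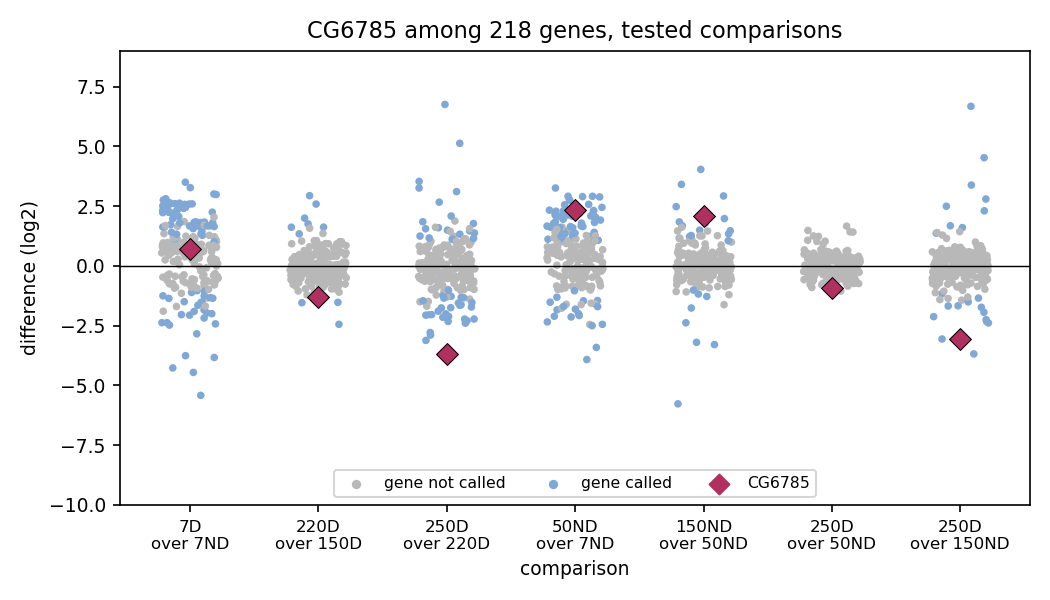
Difference between groups (log2, vertical axis) of each of the 218 genes in the 7 tested comparisons, with blue for called genes, grey for the others and a diamond for CG6785. The diamond lies near the lower edge of all genes in 250D over 220D, at -3.71, and inside the bulk of genes in 7D over 7ND, at 0.71.

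Other genes followed CG6785 to very different degrees. Over the 22 arrays other than 7ND replicate c, the median gene had a Pearson r of 0.09 with it. The gene ranked 20 by r, Hsp68, still had 0.70. The 5 genes with the highest r were Hsr_omega (0.88), a non-coding RNA that heat and other stresses induce, Thor (0.84), a repressor of translation under insulin signalling, Rop (0.84), a protein of vesicle release, stv (0.81), a co-chaperone of Hsp70, and per (0.79), a core gene of the circadian clock. These values describe arrays that share groups, ages and slides. Within groups, over deviations from the group mean, r was 0.53 for Thor and between 0.03 and 0.28 for the other 4, so most of the likeness lay between groups. The order depended on the scale, and 3 of the 5 were again among the first 5 with spike-in scaling, where per led.

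These genes were chosen for their likeness over these arrays, so their differences are described without a test, and their direction is in part fixed by the choice. Hsr_omega stood at 11.47 log2 in 50ND and 13.44 in 150ND, a difference of 1.98 (SE 0.22), and 250D differed from 220D by -2.22 (SE 0.22). For the clock gene per the differences at the same steps were 1.50 (SE 0.27) and -2.89 (SE 0.27), and for the co-chaperone gene stv 1.79 (SE 0.55) and -1.65 (SE 0.55). Those of Thor were 0.95 and -0.26 and those of Rop 0.65 and -0.21, smaller than for the other 3. From 150D to 220D, where CG6785 differed by -1.30, Thor stood at 14.50 and 12.98 log2, a difference of -1.52 (SE 0.28), Rop differed by -0.55 and per by 0.02 (SE 0.27).

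The genes most opposed to CG6785 were Gapdh2 (r -0.88) and Gapdh1 (-0.86), the enzymes of a central step of glycolysis, and Adh (-0.83), which breaks down alcohols. They were chosen for the lowest r over the same arrays and are likewise described without a test. Adh stood at 12.85 log2 in 50ND and 7.08 in 150ND, and from 220D to 250D it differed by 3.26 (SE 0.47). Gapdh2 differed by 1.11 (SE 0.30) and Gapdh1 by 0.88 at that step.

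**Figure D4:**
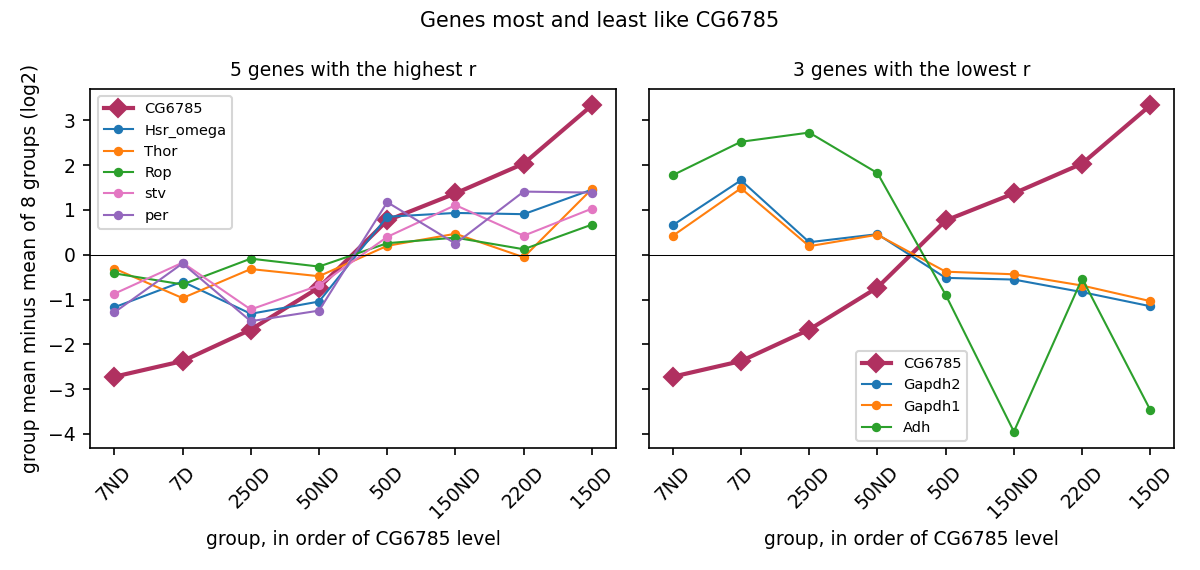
Group means (log2, each gene minus its mean over the 8 groups, vertical axis) of CG6785 and the 5 genes with the highest r (left) and the 3 with the lowest (right), with groups in the order of the CG6785 level and 7ND from replicate a alone. CG6785 has the widest range in the left panel, and Adh is at its lowest in 150ND and 150D.

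The array carries 20 other genes under a CG number alone, and CG6785 is set beside them because they share its naming. Of these, the study also listed CG8630, CG15531 and CG17928 as higher in 150D than in 150ND. From 220D to 250D, 3 of the 20 were called higher and 2 lower, with a median difference of -0.26 log2 against -0.12 over all genes. Over all genes 8.72% were called higher and 13.3% lower, 19 against 29 genes, and with spike-in scaling 21 against 18. The largest rise on the list was that of CG34366, by 2.67 (SE 0.51, adjusted p = 0.000809 by limma), and the largest fall that of CG9747, a gene with fatty acid desaturase activity, by 2.29 (SE 0.46, adjusted p = 0.00111 by limma). CG6785 fell by more than any of the 20. From 50ND to 150ND, 1 was called higher and 1 lower, with a median of -0.13 against 0.03. Over all genes 7.34% were called higher and 3.67% lower, 16 against 8 genes, and with spike-in scaling 3 against 27. CG9747 rose there by 4.04 (SE 0.46, adjusted p = 4.03e-06 by limma), more than CG6785, and CG34366 fell by 3.20 (SE 0.51, adjusted p = 0.000273 by limma). Between 150ND and 250D, which are separate sets of females, CG34366 was higher in 250D by 3.38 (SE 0.51, adjusted p = 7.34e-05 by limma). CG9747 was lower in 250D by 3.68 (SE 0.46, adjusted p = 1.55e-05 by limma). In this comparison 2 of the 20 were called higher and 1 lower, with a median of -0.05 against -0.02. Over all genes 4.13% were called higher and 6.42% lower there.

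At the other steps the list gave the following counts. From 150D to 220D, 1 of the 20 was called, against 5.05% of all genes, with a median of -0.16 against -0.08. It was CG9747, which fell by 2.44 (SE 0.46, adjusted p = 0.00196 by limma). The counts of the comparisons with 7ND rested on replicate c. From 7ND to 50ND 9 of the 20 were called, against 35.3% of all genes, with a median of 0.67 against 0.48. With replicate c left out of normalization and fit, a choice made for this list after the data were seen, 0 of the 20 and 0.459% of all genes were called. Between 7D and 7ND 8 were called, against 39.4% of all genes, with a median of 0.48 against 0.63, and without replicate c 8 and 35.8%, with a median of -0.11 against 0.05. CG17928, a gene related to cytochrome b5, was 2.62 higher in 7D (SE 0.52, adjusted p = 0.000995 by limma), and 1.94 higher without replicate c (adjusted p = 0.0156). CG12020 differed by -3.76 between 7D and 7ND and by -3.92 from 7ND to 50ND, but by 0.21 and 0.05 without replicate c, and was then not called. CG34366 differed by 2.24 from 7ND to 50ND, and by 0.54 without replicate c, when it was not called. Between 250D and 50ND limma called 0 of the 20 and 0% of all genes. At an unadjusted p under 0.05 were 0 of the 20 and 14 of the 218 genes.

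The second CG6785 probe gave little signal. It carries the same name as the bright one but another probe number, and neither is among the 605 probes named as reverse complements. Apart from 7ND replicate c, more than 4 of its 8 spots were well above background on 2 arrays, 150D replicates b and c, with 8 of 8 on each. The next were 150D replicate a with 4 spots and 150ND replicate c with 3. The arrays on which the dim probe could be read were thus of the group in which the bright probe was highest, but not the brightest in order. On 150D replicate b the bright probe read 755 intensity units, below the 1381 of replicate a. That array also had 90.1% of all its gene spots well above background. The other arrays apart from 7ND replicate c had 59.5% to 78.6%. On 7ND replicate c the dim probe read 607 intensity units and the bright one 334, and on the other 22 arrays the dim probe read 1.87 to 18.4. Such pairs were common on this array. Of 320 pairs of probes with the same name, 72 had both probes detected on all 22 arrays, and 73 had 1 probe detected on all of them and the other on fewer than 6.

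**Figure D5:**
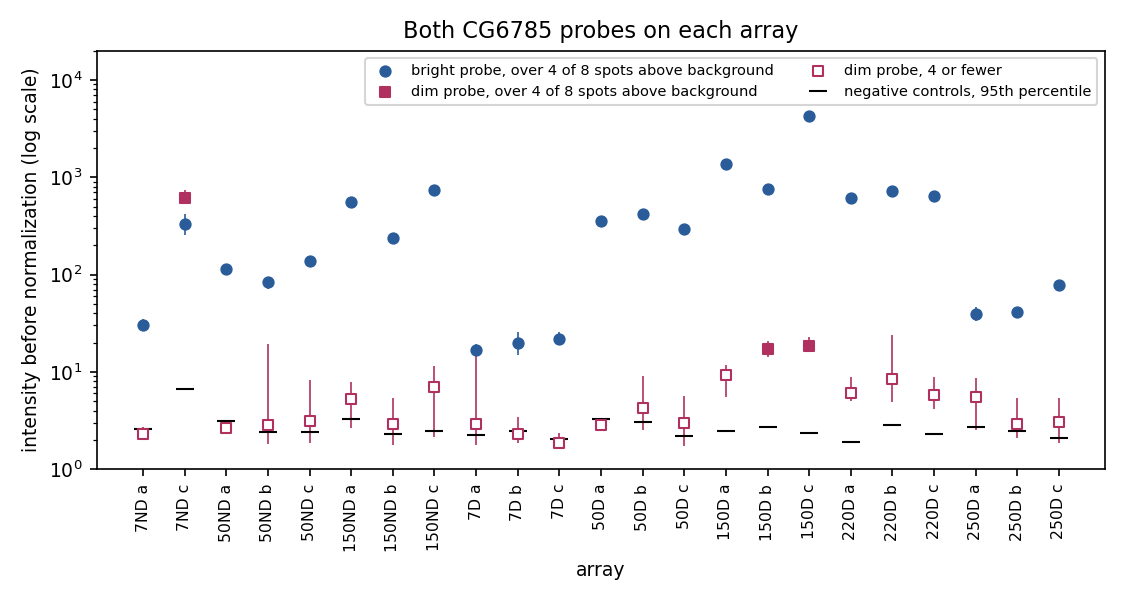
Intensity before normalization (log scale, vertical axis) of the bright and the dim CG6785 probe on each array, as the geometric mean of 8 spots with bars from the lowest to the highest spot. Filled symbols had more than 4 spots well above background, dashes mark the 95th percentile of the negative control spots, and the dim probe is filled on 7ND replicate c and on 150D replicates b and c.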

How the data were processed

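RNA of whole D. montana females was hybridized to 23 one-colour Agilent arrays, and groups were taken from the sample labels. The deposited scanner files, made with Feature Extraction 10.7.1.1, hold the intensity of each spot after background subtraction on a linear scale, with flags of 0 or 1 and no normalization between arrays. The deposited value table gives each probe a single intensity, already quantile-normalized by the authors with limma, and its rows were matched to probes by sorted name. Only ranks within an array are kept by such normalization, so a change shared by most of the 218 chosen genes would be removed.

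The log2 intensity of the 14800 gene spots was quantile-normalized and averaged over the 8 spots of a probe, without those flagged as outliers unless all 8 were (43 probe and array combinations). The probe that was brightest over 22 arrays stood for its gene. limma 3.58.1 (R 4.3.3) was fitted with lmFit and eBayes over all 23 arrays, with p-values adjusted by the Benjamini-Hochberg method over 218 genes. In simulated data laid out as 50D and 7D, with 40 of the 218 genes changed in 20 runs, 65.8% of changes of 1.5 log2 and 93.8% of changes of 2.5 log2 were recovered. The precision is limited by the number of arrays.

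The gene, the list of 20 CG-numbered genes, the marker lists and the tests were chosen with earlier results of these data known. The genes named beside CG6785 are the 5 with the highest and the 3 with the lowest r over 22 arrays and, of the CG-numbered list, the member called with the largest rise and with the largest fall in a comparison. Marker genes of other tissues were detected on all 23 arrays, apart from the neuronal gene para, on 10. By group, their mean log2 level on an array ran from 9.60 in 150ND to 14.32 in 7D for muscle (Mhc, sls), from 8.79 in 150ND to 11.79 in 7D for photoreceptors (ninaE, trp, Arr2) and from 4.24 in 50ND to 5.42 in 7ND for neurons (para, syt, cac).

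The arrays lay on 3 slides, all scanned on 1 day. The replicate letters name pools within a group and were not taken to pair samples, and no 2 arrays held identical values. Sequences of the probes are not given in the files used here. The alternatives were 75th-percentile scaling, no normalization, spike-in scaling on 7 probes, the authors' table, normexp correction (offset 50), the mean of all probes, the second probe, all spots, a filter on dim probes, a block for slide or for replicate letter, fits restricted to the 2 groups, and each array left out. Leaving out 150D replicate c together with 150ND replicate c, and leaving out 7ND replicate c for the CG-numbered list, were added after the data were seen.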

Additional observations from a re-analysis of the deposited data

Results flagged for a closer look

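The second CG6785 probe lies outside the main measurement and was used only in alternatives. More than 4 of its 8 spots were well above background on 3 arrays. On 150D replicates b and c it read 17.2 and 18.4 intensity units, with all 8 spots well above background, where the 95th percentile of the negative controls was 2.69 and 2.36. On 150D replicate a it read 9.37 with 4 of 8 spots well above background. On 7ND replicate c it read 607, against a 95th percentile of 6.61 for the negative controls. The groups hold 2 or 3 arrays each, too few for a test of single arrays as outliers.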

How the results depend on the processing

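Of the 13 alternatives other than leaving out arrays one by one, 12 kept the calls of 250D over 220D (-3.93 to -2.11) and of 250D over 150ND (-3.30 to -1.81), and 10 that of 150ND over 50ND. An exception for all 3 was the second CG6785 probe, near background on most arrays, which gave -0.51, -0.58 and 0.70, with 0.12 for 50D over 7D, 1.43 for 150D over 50D, 0.084 for 50D over 50ND, 0.81 for 150D over 150ND, and the turned signs -1.78 for 7D over 7ND, -1.74 for 50ND over 7ND and 0.12 for 250D over 50ND. The mean of both probes gave 1.63 for 50D over 7D and 0.79 for 50D over 50ND. It gave -0.54 for 7D over 7ND and 0.30 for 50ND over 7ND. On the dim probe 7ND replicate c stood at 5.62 log2 and replicate a at 1.49. The group means there were 1.78 in 7D and 1.81 in 50ND, and replicate a lay below every array of these groups. The turned signs against 7ND thus rested on replicate c, and the mean of both probes includes its reading. For 7D over 7ND, 75th-percentile scaling, no normalization and spike-in scaling gave -0.24, -2.38 (adjusted p = 0.00903 by limma, called in the opposite direction) and -1.11, and for 50ND over 7ND 1.35, 0.13 and 1.42, no longer called. No normalization gave 4.19 for 50D over 7D and 2.07 for 150ND over 50ND, and spike-in scaling gave 3.85, 1.78 (150D over 50D) and 1.33 (150ND over 50ND). Normexp correction gave 1.79 for 50D over 7D, 0.96 for 50ND over 7ND and -1.23 for 220D over 150D. The last comparison passed the threshold there, with the authors' table (-1.32) and without 7ND replicate c in the normalization (-1.33, adjusted p = 0.0416), a setting in which 50ND over 7ND was 2.04. Fitted on the 2 groups alone, 50ND over 7ND kept 2.35 but not its call, with fewer arrays behind its spread. The causes were not tested.

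With 1 array left out at a time, 50ND over 7ND ran from 1.99 to 2.70, 150D over 50D from 1.99 to 2.95, 150D over 150ND from 1.38 to 2.36, and the change of the diapause difference from -0.11 to 0.86, where 150D replicate c gave each lowest value but the first, which 7ND replicate c gave. Without 150D replicate c and 150ND replicate c together, a choice made after the data were seen, 150D over 50D was 1.99. With the replicate letter as a block (replicate block) 250D over 220D was -3.71, and this block and the slide changed no call. Over 70 pairs of arrays of one letter and different groups the median correlation of deviations from the group means was 0.11, against -0.04 over 140 pairs of different letters. Of the 5 genes most like CG6785, 2 recurred with group means, 3 with 75th-percentile and 3 with spike-in scaling.

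The number of genes called moved by over 1.5 times between settings, from the main 86 to between 0 and 128 for 7D over 7ND, from 77 to between 0 and 81 for 50ND over 7ND, from 24 to between 12 and 32 for 150ND over 50ND, from 11 to between 4 and 19 for 220D over 150D, and from 0 to up to 11 for 250D over 50ND. The median gene shifted most with no normalization, to -1.47 for 7D over 7ND from 0.63. The bright probe was well above background on all arrays, but its levels in young females were low there, and background handling moved the differences that use them, as given for normexp correction.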
